A study of Mus musculus with 2 samples.

Results

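Retinal endothelial cells of neonatal mice were examined for 10 genes that decide whether a cell leaves G1: the D cyclins Ccnd1, Ccnd2 and Ccnd3, their kinase partners Cdk4 and Cdk6, the Cip/Kip inhibitors Cdkn1a, Cdkn1b and Cdkn1c, and the INK4 inhibitors Cdkn2c and Cdkn2d. The genes were chosen by symbol, and all 10 were found by Ensembl identifier among the 22734 genes of the P6 count table and the 21785 genes of the P15 table. Their levels were read over each library and in each of the 9 endothelial clusters that the study named: Proliferative, Primitive, Stalk, Tip, Venous, Cap-Venous (capillary to venous), Capillary, Cap-Arterial (capillary to arterial) and Arterial.

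The cells came from retinas of wild-type C57BL/6 pups at postnatal day 6 (P6) and postnatal day 15 (P15). The vascular plexus is still spreading at P6, and its main branches are more mature at P15. For its experiments at large, the study reports as many male as female mice. CD31+ CD45- cells were sorted and captured in droplets, and each messenger RNA was counted once through its unique molecular identifier (UMI). There was 1 library per age, so a difference between ages cannot be told apart from a difference between libraries, and no test between ages or clusters was possible. Cluster labels were matched to 1560 P6 cells and to 438 P15 cells, all of the latter among the first 539 barcodes of their table, and these labelled cells were used unless another set is named. They held 9642395 UMIs at P6 (median 5364 per cell) and 2140521 at P15 (median 4356). The clusters held 40 (Arterial) to 414 cells (Cap-Venous) at P6 and 2 (Venous) to 134 at P15, and the 2 P15 Venous cells are left out of every range over clusters. Xist without Y-linked UMIs was seen in 267 P6 cells and the reverse in 385, and at P15 in 19 and 213 cells, so the libraries differed in the sex of the cells sampled. In the 42 P6 Venous cells, 15 had Xist alone and 0 had Y-linked UMIs alone.

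D cyclins are made in response to growth signals and activate CDK4 and CDK6, which phosphorylate the retinoblastoma protein and release E2F factors for entry into S phase. INK4 proteins bind the kinases themselves and keep the cyclins away, whereas Cip/Kip proteins bind cyclin-kinase complexes, above all those of CDK2. In growing vessels, migrating tip cells and arterial cells are mostly outside the cycle, and Notch signalling, blood flow and Cip/Kip inhibitors have been linked to the arrest of endothelial cells that become arterial. The levels below are UMIs per 1000000 UMIs (CPM) of the cells they cover, with exact Poisson 95% intervals, and ratios of levels carry exact conditional intervals. Both cover counting error only, not the differences between cells, animals or libraries. They treat UMIs as independent, so they are too narrow where a few cells hold many of the UMIs. The chance of counting a transcript differs between genes, so levels are compared within a gene and not between genes. A ratio is called higher or lower when it is past 1.5-fold, a rule of size that is not a test.

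Different members of the same family peaked in different clusters. At P6, Ccnd2 and Cdkn1c were highest in Arterial cells, Cdkn1b in Stalk cells, Cdkn1a in Venous and Tip cells, Cdk4 in Primitive and Proliferative cells, and Cdkn2c in Proliferative cells. The clusters were made by the study from these same counts, and Ccnd2, Cdkn1c and Cdk4 were among the genes it displayed when it named them, so the pattern over clusters is a description. Of 71 pairs of a member and a P6 cluster with enough UMIs for a comparison with the other labelled cells, 11 were higher and 25 lower, against 8.08% higher and 14.2% lower among such pairs of all genes. At P15, 7 of 43 pairs were higher and 13 lower, against 7.54% and 12.5%.

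**Figure D1:**
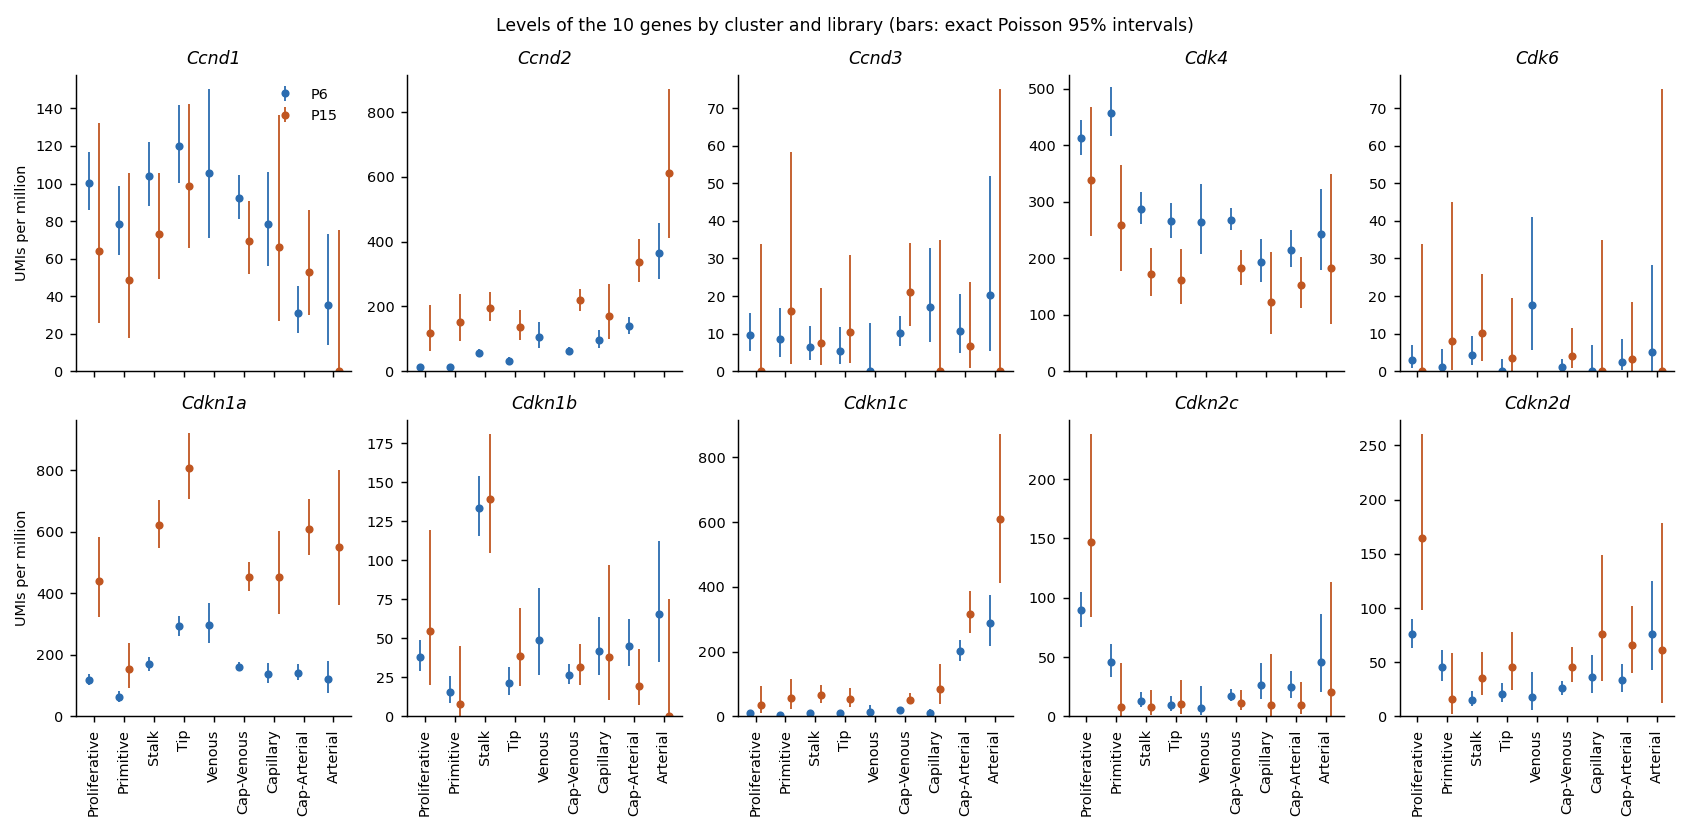
Level of each of the 10 genes in the 9 clusters, in CPM, at P6 and at P15, with exact Poisson 95% intervals as bars. Ccnd2 and Cdkn1c reach 364 and 288 CPM in P6 Arterial cells, Cdkn1b reaches 134 in P6 Stalk cells, and Cdkn1a is higher at P15 in each of the 8 clusters with 10 or more P15 cells.

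Ccnd1 (chr7:144929931-144939925, minus strand; coordinates of all genes are from GENCODE M21 on GRCm38) encodes the D cyclin most often linked to mitogen signalling. At P6 its levels ran from 31.1 CPM (20.3 to 45.6) in Cap-Arterial cells to 119.7 CPM (100.3 to 141.8) in Tip cells. Stalk, Venous, Proliferative and Cap-Venous cells lay between 92.4 and 105 CPM, and Primitive and Capillary cells near 78 CPM. Thus Ccnd1 was lowest in the arterial clusters, with 35.4 CPM (14.2 to 73.0) in Arterial cells, while no pair of neighbours in the order had intervals that stood apart. The Cap-Arterial level was 0.32 (0.21 to 0.48) times that of the other labelled cells. The same gene hardly marked Proliferative cells: the Proliferative level of 100.3 CPM was 1.14 times (0.95 to 1.35) that of the rest. At P15 the range was narrower, from 0 UMIs in 11 Arterial cells (Poisson interval 0 to 75.2 CPM) to 98.5 CPM (65.5 to 142) in Tip cells, and all Poisson intervals overlapped.

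Ccnd2 (chr6:127125162-127152193, minus strand) had the opposite profile at P6. Its level was 13.7 CPM (8.71 to 20.6) in Proliferative and 13.8 CPM in Primitive cells, 31.3 CPM in Tip cells, 54.8 CPM in Stalk cells and 63.9 CPM in Cap-Venous cells. Capillary, Venous and Cap-Arterial cells followed at 97.5, 105 and 138.8 CPM, with overlapping intervals. Arterial cells stood alone at 364 CPM (285 to 459), 6.68 times (5.15 to 8.57) the other cells, and 31 of the 40 cells held at least 1 UMI. In Proliferative cells, which hold more UMIs per cell, 18 of 198 did. In cells thinned to 3000 UMIs each, a step that removes differences in depth, the shares with a Ccnd2 UMI were 53.1% of 32 Arterial and 3.08% of 195 Proliferative cells. At P15 the order was kept at the top, with 611 CPM (412 to 873) in Arterial and 337 CPM (275 to 409) in Cap-Arterial cells, both clear of the next cluster, and the lowest level was 119 CPM in Proliferative cells.

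Ccnd3 (chr17:47505051-47599691, plus strand), the third D cyclin, was sparse. It had 88 UMIs at P6 and 26 at P15, at most 3 in a cell, and its intervals overlapped between all clusters at each age. The P6 levels ran from 0 UMIs in 42 Venous cells, which allows up to 10.5 CPM, to 20.2 CPM (5.52 to 51.8) in Arterial cells.

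The makeup of the D cyclin pool therefore differed between clusters and ages. At P6, Ccnd1 held 81.2% (75.2 to 86.25, Clopper-Pearson 95% interval) of the 207 D cyclin UMIs of Proliferative cells and Ccnd2 held 11.1%. In Arterial cells the shares were 8.43% (3.46 to 16.6) and 86.7% (77.5 to 93.2) of 83 UMIs, and in Cap-Arterial cells 17.2% and 76.8%. The Ccnd1 share of Tip cells, 76.6%, was close to the 77.9% of Primitive cells. Over all labelled cells, the Ccnd2 share was 37.9% (35.5 to 40.4) at P6 and 73.1% (69.5 to 76.5) at P15. It was higher at P15 in each of the 8 clusters. In Proliferative cells it was 65.0% at P15 on only 20 UMIs (40.8 to 84.6). The summed level of the 3 cyclins was lowest in Primitive (100.9 CPM) and Proliferative (124 CPM) cells and highest in Arterial cells (420.0 CPM) at P6.

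**Figure D2:**
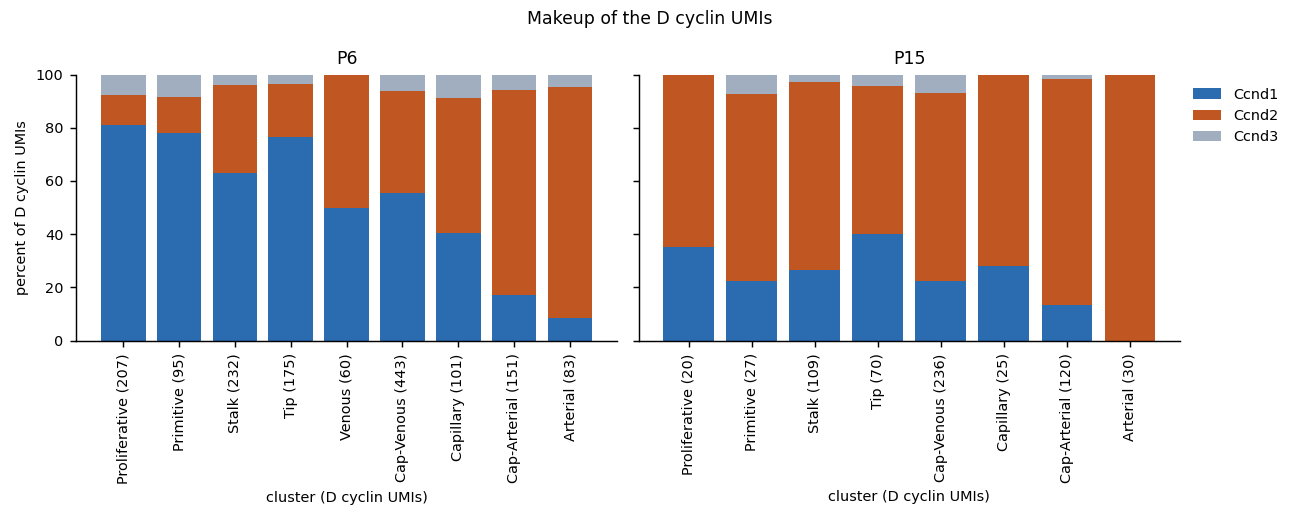
Share of the D cyclin UMIs held by Ccnd1, Ccnd2 and Ccnd3, in percent, for each cluster at P6 and P15. Ccnd2 holds 86.7% of the pool in P6 Arterial cells and 11.1% in P6 Proliferative cells, and its share is larger at P15 in every cluster with 10 or more P15 cells.

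Of the kinases, Cdk4 (chr10:127063534-127067920, plus strand) was seen in 70.3% of labelled P6 cells and 52.1% of P15 cells (54.4% and 43.3% after thinning). At P6, Primitive cells had 458 CPM (415 to 503) and Proliferative cells 413 CPM (382 to 445), and both stood apart from the 7 other clusters. The others ran from 287 CPM (259.6 to 316) in Stalk to 193 CPM (157 to 235) in Capillary cells, with neighbours overlapping throughout. The ratio to the other cells passed 1.5-fold in Primitive cells, at 1.59 (1.43 to 1.76), and fell just short in Proliferative cells, at 1.46 (1.34 to 1.59). At P15 the 14 Proliferative cells had the highest level, 339 CPM (239 to 467), and overlapped with Primitive cells (258 CPM, 177 to 365).

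Cdk6 (chr5:3341485-3531008, plus strand), the alternative partner of D cyclins, had 23 UMIs in 18 of 1560 P6 cells and 10 UMIs in 10 of 438 P15 cells. Those UMIs were too few for any cluster comparison. Of the 5 UMIs in Venous cells at P6, 4 came from 1 cell.

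Cdkn1a (chr17:29090976-29100727, plus strand) encodes p21, a p53 target that arrests cells in G1. At P6, Venous cells had 299 CPM (239 to 369) and Tip cells 294 CPM (263 to 328), and both stood apart from the 7 other clusters. The ratios to the other labelled cells were 1.90 (1.51 to 2.37) and 2.04 (1.80 to 2.31). Stalk, Cap-Venous, Cap-Arterial, Capillary, Arterial and Proliferative cells lay between 170.2 and 119 CPM with overlapping neighbours, and Primitive cells were lowest at 63.7 CPM (48.6 to 82.0). The cluster defined by cycling was thus not the one with least Cdkn1a: 98 of 198 Proliferative cells held at least 1 UMI. At P15, Tip cells were again highest, at 809 CPM (708 to 921), and overlapped with the 11 Arterial cells alone (550.1 CPM, 362 to 800.4). Primitive cells were lowest, at 153 CPM (92.3 to 239), and stood apart from every other cluster.

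Cdkn1b (chr6:134920401-134925513, plus strand) encodes p27, which holds CDK2 inactive in resting cells. Its level was highest in Stalk cells at both ages, apart from every other cluster at P6 and overlapping only with the 14 Proliferative cells (55.0 CPM, 20.2 to 119.7) at P15. Stalk cells had 134 CPM (115 to 154) at P6, 4.23 times (3.48 to 5.12) the 31.7 CPM of the other cells, and 139 CPM (105 to 181) at P15, 4.67 times (3.14 to 6.96) the 29.8 CPM of the others. The other P6 clusters ran from 15.9 CPM (8.91 to 26.3) in Primitive to 65.8 CPM (35.0 to 113) in Arterial cells, where 1 of the 40 cells held 61.5% of the 13 UMIs. In Stalk cells the UMIs were spread, with 105 of 230 P6 cells positive and at most 3.72% of UMIs in 1 cell. After thinning, 26.8% (20.9 to 33.5) of 205 Stalk cells had a UMI against 8.25% (5.71 to 11.4) of 388 Cap-Venous cells. Arterial cells, in contrast, had 0 Cdkn1b UMIs among 11 cells at P15, which allows up to 61.1 CPM.

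Cdkn1c (chr7:143458339-143461050, minus strand) encodes p57, an imprinted Cip/Kip inhibitor. At P6 it had 288 CPM (219 to 374) in Arterial and 202 CPM (173 to 235) in Cap-Arterial cells, which overlapped. The 7 other clusters lay between 4.25 CPM (1.16 to 10.9) in Primitive and 21.0 CPM (15.9 to 27.3) in Cap-Venous cells. All 7 were past 1.5-fold lower than the rest, and the Cap-Arterial ratio was 10.4 (8.37 to 12.95). Even so, 57 of 162 P6 Cap-Arterial cells held a Cdkn1c UMI, and the highest single cell held 15, so the transcript was unevenly spread. In the Cap-Venous cluster 1 cell held 12 of the 56 UMIs. Marker sums of other cell types were also raised in the arterial clusters at P6. Neural markers, mostly Stmn2, stood at 1189 CPM in Arterial and 242 CPM in Cap-Arterial cells against 6.01 to 21.1 CPM elsewhere. Glial markers stood at 1564 and 1592 CPM against 117 to 257 CPM. The glial sum was nearly all Glul, which was seen in 62.0% of labelled P6 cells and so is not particular to glia here. Gfap, Rlbp1 and Slc1a3 were at 0.41, 1.24 and 0.52 CPM over those cells. The part of other cell types' RNA in the Cdkn1c, Ccnd2 and Cdkn1b levels of these clusters was not tested. At P15 the Arterial (611 CPM) and Cap-Arterial (317 CPM, 257 to 387) levels stood apart from each other and from the rest, which ran from 36.7 to 85.1 CPM.

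Of the INK4 genes at P6, Cdkn2c was highest in Proliferative cells, while Cdkn2d was level there and in Arterial cells. Cdkn2c (chr4:109660876-109667189, minus strand), which encodes p18, had 89.6 CPM (75.8 to 105) in P6 Proliferative cells, 4.33 times (3.44 to 5.43) the other cells. Primitive cells came next with 45.7 CPM (33.0 to 61.5) and the lowest level was 7.03 CPM in Venous cells, on 2 UMIs. The Arterial value of 45.6 CPM rested on 2 cells, 1 of which held 7 of the 9 UMIs. Cdkn2d (chr9:21288410-21291407, minus strand), which encodes p19INK4d, had 75.8 CPM (63.2 to 90.2) in Proliferative cells, 2.70 times (2.15 to 3.37) the rest, and 75.9 CPM (42.5 to 125) in the 40 Arterial cells, where 1 cell held 5 of 15 UMIs. Stalk cells were lowest at 15.7 CPM. Of 2 INK4 genes tested in Proliferative cells both were higher, beside 9.94% of all genes, and of the 9 members tested there 2 were lower, Ccnd2 and Cdkn1c, beside 13.1%. The 14 P15 Proliferative cells also led, with 16 Cdkn2c UMIs (147 CPM, 83.8 to 238) and 18 Cdkn2d UMIs (165 CPM, 97.8 to 261). Of the 16 Cdkn2c UMIs 1 cell held 7.

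Promoter sequences were at hand for 7 of the 10 genes, from RefSeq on GRCm38.p6, each with 250 bases before and 50 after the start of transcription. The 7 genes had 10 windows, 2 of them for each of Ccnd3, Cdkn1a and Cdkn2c. The windows of the 3 members with the largest ratio of Proliferative to other P6 cells are shown. Both strands were searched for the GC box GGGCGG, the core site of Sp1-type factors. An E2F-like string, TTCCCGC, was searched in the same way. Capitals mark the matches, also where the string lies on the other strand, and 2 GC boxes in the Cdk4 window share a base. The E2F-like string TTCGCGC was in 1.59% of 32851 promoters and in none of the 10 member windows. The same held for TTGGCGC, in 2.45% of promoters, and for TTTGAA, the core of a cell cycle homology region, in 17.9%.
Cdk4, chr10:127063285-127063584, plus strand: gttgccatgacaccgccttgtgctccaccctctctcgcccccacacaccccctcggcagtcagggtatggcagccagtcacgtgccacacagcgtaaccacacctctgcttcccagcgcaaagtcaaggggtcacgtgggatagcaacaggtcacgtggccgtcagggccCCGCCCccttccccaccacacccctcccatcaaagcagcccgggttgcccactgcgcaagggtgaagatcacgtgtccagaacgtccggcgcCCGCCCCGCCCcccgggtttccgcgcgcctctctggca
Cdkn2c, chr4:109666707-109667006, minus strand: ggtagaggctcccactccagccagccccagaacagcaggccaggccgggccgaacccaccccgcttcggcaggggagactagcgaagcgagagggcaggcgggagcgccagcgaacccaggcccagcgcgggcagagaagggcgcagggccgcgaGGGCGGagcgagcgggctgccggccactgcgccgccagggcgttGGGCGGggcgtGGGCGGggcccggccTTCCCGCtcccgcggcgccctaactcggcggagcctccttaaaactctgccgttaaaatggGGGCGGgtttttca
Cdkn2d, chr9:21291160-21291459, minus strand: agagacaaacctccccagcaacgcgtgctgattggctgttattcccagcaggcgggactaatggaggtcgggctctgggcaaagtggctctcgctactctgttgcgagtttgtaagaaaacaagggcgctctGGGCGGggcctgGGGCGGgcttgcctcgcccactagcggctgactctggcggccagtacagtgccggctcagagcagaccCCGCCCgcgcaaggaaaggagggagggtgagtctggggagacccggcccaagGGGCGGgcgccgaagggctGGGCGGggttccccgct
The windows held 3, 4 and 5 GC boxes, and 35.7% of all 32851 promoters held at least 1. The windows of Cdkn1a, Cdkn1b and Ccnd3 also held the GC box, so it did not separate the genes by cluster. The E2F-like string TTCCCGC was in 1 of the 10 member windows, the Cdkn2c window shown, and in 4.60% of all promoters. The second Cdkn2c window, chr4:109665323-109665622, held neither this string nor a GC box. A match is a string in a window, not a bound site.

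Cluster by cluster, Primitive cells had low Cip/Kip inhibitors and a high kinase, while Cdkn2c (1.46, 1.03 to 2.02) and Cdkn2d (1.29, 0.91 to 1.78) were above 1 and within 1.5-fold there. Of the 8 members tested there at P6, Cdk4 was higher, beside 5.63% of all genes, and 4 were lower (Ccnd2, Cdkn1a, Cdkn1b and Cdkn1c). The background was 39.3% of all genes lower in this cluster, where the median gene was at 0.78 of its level in the other cells, so low member levels there were common among genes at large. The summed Cip/Kip level was 83.9 CPM (66.4 to 105) in Primitive, 167 CPM in Proliferative and 476 CPM (384 to 582) in Arterial cells. In Cap-Arterial cells, 2 of 8 members were higher (Ccnd2 and Cdkn1c), beside 13.3%, and 1 was lower (Ccnd1), beside 12.0%. Among thinned P6 cells, 37.5% of Arterial cells held UMIs of both a D cyclin and an inhibitor, against 7.74% of Primitive and 17.4% of Proliferative cells.

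Between ages, 3 members had much higher levels in the P15 library: Ccnd2, Cdkn1a and Cdkn1c. Ccnd2 had 60.9 CPM (56.1 to 66.0) at P6 and 219 CPM (199 to 239) at P15, a ratio of 3.59 (3.17 to 4.06). Cdkn1a had 161 CPM (153 to 169.6) and 537 CPM (506 to 569), a ratio of 3.33 (3.08 to 3.59). Cdkn1c had 35.3 and 106 CPM, a ratio of 3.01 (2.53 to 3.57). Lower levels at P15 were seen for Cdk4, with 305 CPM (294 to 316) and 183 CPM (165 to 202) and a ratio of 0.60 (0.54 to 0.67), and for Cdkn2c, with 32.7 and 17.3 CPM and a ratio of 0.53 (0.37 to 0.75). These are 3 higher and 2 lower of 9 members with 100 or more UMIs, beside 17.3% higher and 12.9% lower among 8658 genes. The median ratio was 1.33 over the 9 members and 1.07 over all genes.

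The remaining genes stayed within 1.5-fold or had too few UMIs. Ccnd1 was at 90.4 and 68.2 CPM (ratio 0.75, 0.63 to 0.90), Cdkn1b at 46.6 and 49.99 CPM (1.07, 0.86 to 1.33), Cdkn2d at 36.4 and 52.8 CPM (1.45, 1.16 to 1.80) and Ccnd3 at 9.13 and 12.1 CPM (1.33, 0.82 to 2.08). Cdk6, with a ratio of 1.96 (0.83 to 4.28), was below the minimum. The 2 INK4 genes therefore lay on opposite sides of 1, as did the main D cyclins. The shares of thinned cells with a UMI followed the levels. They were 13.6% (11.8 to 15.5) at P6 and 46.1% (40.6 to 51.7) at P15 for Ccnd2, 30.7% and 63.6% for Cdkn1a, and 6.11% and 18.7% for Cdkn1c. Without thinning these shares were 22.8% and 52.97%, 47.2% and 70.6%, and 10.9% and 24.9%.

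**Figure D3:**
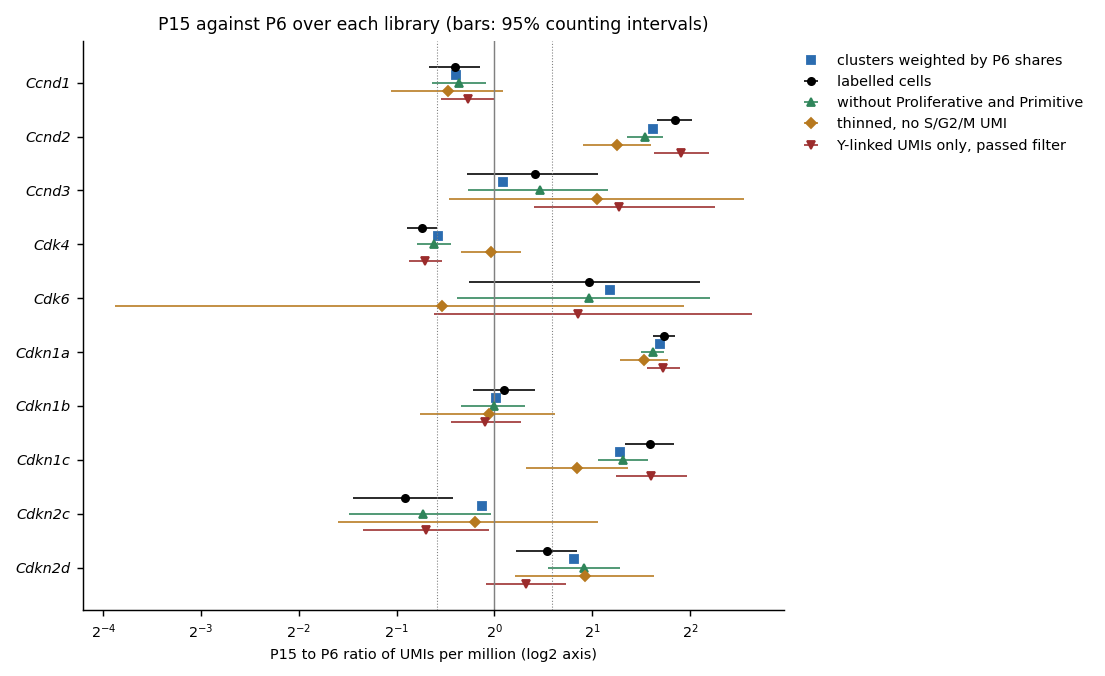
Ratio of the P15 to the P6 level for each of the 10 genes on a log2 axis, with exact 95% counting intervals, over all labelled cells (black) and under 4 other choices of cells or weights; dotted lines mark 1.5-fold. Ccnd2 (3.59), Cdkn1a (3.33) and Cdkn1c (3.01) lie above 1.5 over all labelled cells, Cdk4 (0.60) and Cdkn2c (0.53) lie below 0.667, and in cells without S, G2 and M UMIs (brown) Cdk4 lies at 0.98.

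The libraries differed in more than age, and several of those differences moved with the members. The P15 labelled cells held a smaller share of Proliferative cells, a different mix of clusters, fewer female cells, more transcripts of stress-induced early genes (Fos at 69.4 and 329 CPM at P6 and P15) and more RNA of other cell types. The summed level of 6 lists of marker genes went from 8.504 to 189 CPM for pericytes, mostly Rgs5, from 337 to 1127 CPM for glia, mostly Glul, from 53.7 to 80.8 CPM for neural cells, from 22.3 to 177 CPM for blood cells, from 1.76 to 7.94 CPM for leukocytes, and from 8800 to 14377 CPM for endothelial cells. Glul was seen in 62.0% of labelled cells at P6 and 82.9% at P15, so the glial sum is not particular to glia. Hbb-bt, Neurod1 and Cd63, whose UMIs the study used to exclude cells, were at 0 in the labelled cells of both ages, as was Cspg4 at P6 among the pericyte markers, while all 8 endothelial markers were seen. The member ratios were measured again in cells chosen for each of these. Among cells with Y-linked UMIs only that passed the study's filters (339 at P6, 821 at P15), the ratios were 3.75 for Ccnd2, 3.31 for Cdkn1a, 3.03 for Cdkn1c and 0.61 for Cdk4. Among Xist-only cells, of which P15 had 19, the Cdkn1c ratio was 0.98 on 4 P15 UMIs. Its interval of 0.26 to 2.61 was too wide to tell whether the higher level was absent there.

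Cells without any UMI of 20 S, G2 and M phase genes (464 at P6, 225 at P15, thinned) gave a Ccnd2 ratio of 2.38 (1.87 to 3.04), a Cdkn1a ratio of 2.88 (2.43 to 3.42) and a Cdkn1c ratio of 1.80 (1.25 to 2.57). In the same cells Cdk4 was at 0.98 (0.79 to 1.21), so its lower level was not seen there. Cdkn2c was at 0.87 (0.33 to 2.08) on 8 P15 and 19 P6 UMIs. That interval also holds the 0.53 of all labelled cells, so it cannot tell whether the lower Cdkn2c level was kept. With only Proliferative and Primitive cells left out, Cdkn2c was at 0.60 (0.36 to 0.97) and Cdk4 at 0.65 (0.58 to 0.73). Cells without UMIs of Fos, Jun or Egr1 (889 at P6, 69 at P15) kept a Cdkn1a ratio of 3.57 (2.82 to 4.49) and a Ccnd2 ratio of 3.87. Cells without UMIs of the pericyte genes Rgs5, Pdgfrb, Kcnj8 and Abcc9, the neural and glial genes Stmn2, Rcvrn and Rlbp1, or haemoglobin genes (1240 at P6, 115 at P15) had ratios of 3.64 for Cdkn1a, 3.25 for Ccnd2, 2.95 for Cdkn1c, 0.50 for Cdk4 and 0.44 for Cdkn2c, and Cdkn1b (1.53, 1.01 to 2.23) and Cdkn2d (1.56, 0.97 to 2.39) were just past 1.5-fold there. Weighting the P15 clusters by their P6 shares gave 3.08 for Ccnd2, 3.23 for Cdkn1a and 2.44 for Cdkn1c. It gave 0.67 for Cdk4, 0.91 for Cdkn2c and 1.76 for Cdkn2d. The 0.91 gives much weight to 14 P15 Proliferative cells, where 1 cell held 7 of 16 Cdkn2c UMIs. Cdkn2d, at 1.45 over all labelled cells, was also past 1.5-fold without S, G2 and M UMIs (1.90, 1.15 to 3.10). Without Proliferative and Primitive cells Cdkn2d was at 1.89 (1.46 to 2.44). Among cells with Y-linked UMIs only that passed the filters it was at 1.25 (0.94 to 1.66).

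Within clusters, 56 pairs of a member and a cluster had at least 20 UMIs over both ages. At P15, 32 of them were higher and 11 lower, beside 21.4% and 19.6% of 51675 such pairs of all genes. Cdkn1a was higher in all 8 clusters, from 2.41-fold (1.36 to 4.09) in Primitive to 4.53-fold (2.52 to 8.20) in Arterial cells. Ccnd2 was higher in all 8, and its ratio was largest where its P6 level was lowest: 11.1 (5.21 to 24.5) in Primitive and 8.67 (4.04 to 17.9) in Proliferative cells, against 2.43 (1.84 to 3.20) in Cap-Arterial and 1.68 (1.06 to 2.60) in Arterial cells. Cdkn1c was higher in all 6 clusters tested, again most in a cluster with little at P6, with 5.43 (2.84 to 10.7) in Stalk and 1.57 (1.21 to 2.03) in Cap-Arterial cells. The P6 level is the divisor of these ratios, so a low P6 level and a large ratio are in part tied by construction. The P6 levels of Ccnd2 in Primitive and Proliferative cells rested on 13 and 23 UMIs. Ccnd2 and Cdkn1c kept Arterial cells as their highest cluster, while their levels spanned a smaller range of folds over clusters at P15.

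Cdk4 was below 1 in all 8 clusters and past 1.5-fold in 4, from 0.56 (0.38 to 0.81) in Primitive to 0.82 (0.57 to 1.14) in Proliferative cells. Cdkn2d was higher in 6 of 7 clusters, up to 2.26 (1.07 to 4.62) in Stalk cells, the exception being Primitive cells with 2 P15 UMIs (0.35, 0.041 to 1.36). Ccnd1 was below 1 in 6 of 7 clusters and past 1.5-fold in 2, Primitive (0.62) and Proliferative (0.64). Those 2 values changed direction under other settings, to 1.505 in Proliferative cells after thinning and to 1.05 in Primitive cells with predicted labels and 1.08 in Y-only cells. Above 1 were Cap-Arterial cells, at 31.1 CPM at P6 and 52.9 CPM at P15, a ratio of 1.70 (0.85 to 3.29), which was 2.05 (1.31 to 3.33) when cluster labels were predicted for 300 P15 cells. Cdkn1b in Stalk cells was at 1.04 (0.76 to 1.41), so the cluster with the highest level had close to the same value at both ages. Cdkn2c ran from 0.18 in Primitive to 1.64 (0.91 to 2.75) in Proliferative cells, and Ccnd3 could be compared in Cap-Venous cells only (2.07, 1.04 to 3.97).

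**Figure D4:**
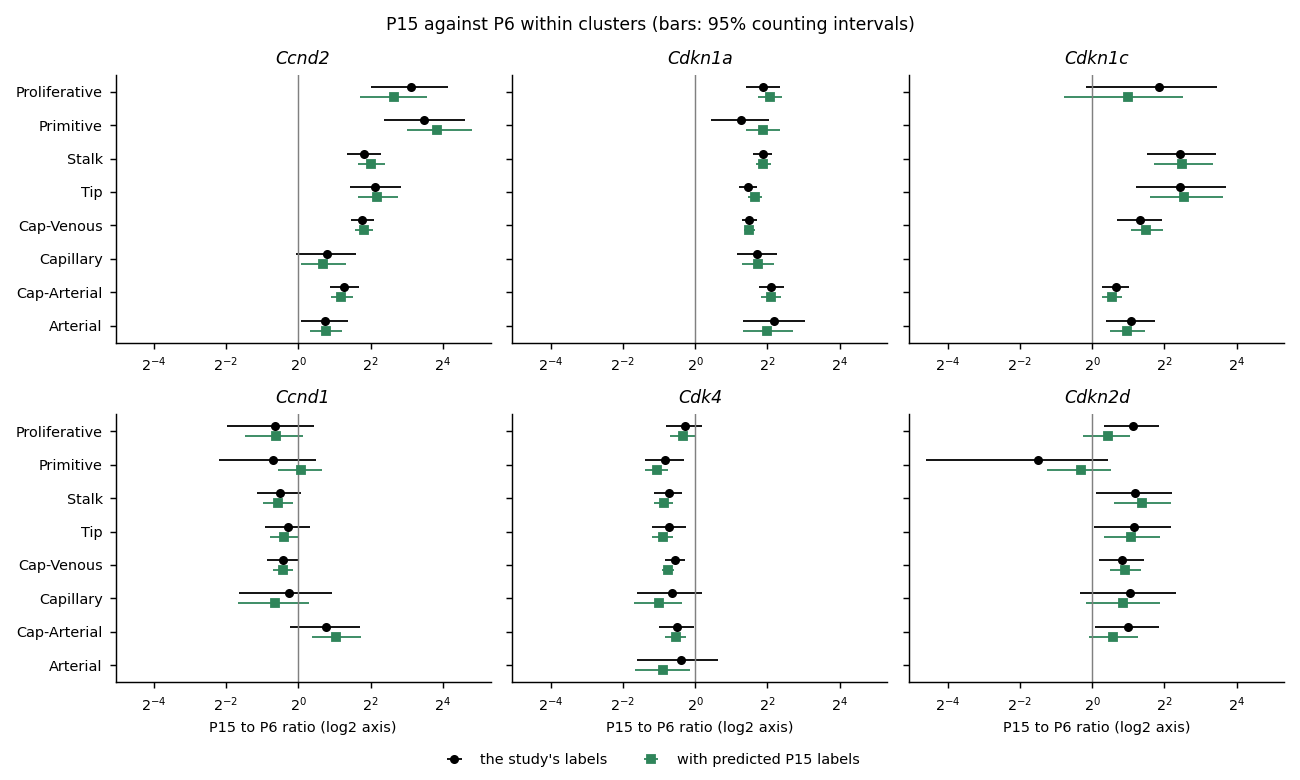
Ratio of the P15 to the P6 level of 6 of the genes within each cluster that had enough UMIs, on a log2 axis with exact 95% counting intervals, with the study's labels (black) and with predicted labels for P15 cells (green). All Cdkn1a and Ccnd2 points lie above 1.5, the Cdk4 points with the study's labels lie between 0.56 and 0.82, and the Ccnd1 points with those labels lie below 1 except in Cap-Arterial cells (1.70).

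UMIs of S, G2 and M genes were also found outside the Proliferative cluster, and the members were compared between cells with and without them. Of 1197 thinned P6 cells in the other 8 clusters, 434 had 2 or more UMIs of the 20 S, G2 and M genes and 464 had 0. None of the members is in that list. By the same rule 14 of 309 P15 cells had 2 or more, with ratios of 0.75 (0.27 to 1.68) for Cdk4 and 4.11 (1.74 to 8.73) for Ccnd1 on 6 and 9 UMIs, and the P6 cells are described here. UMIs from free RNA count here as well, and their part was not tested. Cdk4 had 381 CPM in the former and 197 CPM in the latter (ratio 1.94, 1.67 to 2.25), and Cdkn2c 30.7 and 13.7 CPM (2.25, 1.27 to 4.11). Ccnd2 went the other way with 38.4 and 92.7 CPM (0.41, 0.29 to 0.58), as did Cdkn1c with 16.9 and 50.3 CPM (0.34, 0.20 to 0.55). With Ccnd3 (1.54, 0.61 to 4.09), whose interval spans 1, 3 of 9 members were higher and 2 lower, beside 10.5% and 19.5% of 8741 genes. Ccnd1 (1.28, 0.97 to 1.68), Cdkn1a (0.80, 0.65 to 0.97), Cdkn1b (1.03, 0.71 to 1.51) and Cdkn2d (1.42, 0.91 to 2.23) stayed within 1.5-fold.

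The clusters differed in their share of cells with 2 or more such UMIs, from 13.5% in Cap-Arterial and 53.8% in Capillary to 80.0% in Primitive cells, although over the Primitive cluster 8 of the 20 genes were higher than in the other cells and 3 were lower. The ratios were therefore read within single clusters as well. There, Cdk4 was higher in the cells with such UMIs in 6 of 8 clusters, at 2.14 (0.98 to 5.35) in Capillary, 2.43 (1.33 to 4.95) in Primitive, 2.24 (1.46 to 3.44) in Tip, 2.17 (1.20 to 3.82) in Cap-Arterial, 1.73 (1.31 to 2.28) in Cap-Venous and 1.70 (1.17 to 2.48) in Stalk cells. It was not in the clusters with 8 such cells each, Arterial (a ratio of 1, 0.23 to 3.58) and Venous (0.54, 0.13 to 1.71). Ccnd2 stayed lower in Stalk (0.28, 0.093 to 0.74) and Cap-Venous cells (0.49, 0.23 to 0.97). Cdkn1c ratios lay on both sides of 1, with intervals that all spanned 1 and overlapped, so no difference between clusters was shown. The ratio was 1.75 (0.88 to 3.32) on 15 UMIs in Cap-Arterial cells. It was 0.32 (0.061 to 1.08) on 3 in Arterial and 0.30 (0.032 to 1.33) on 2 in Cap-Venous cells. Ccnd1 was 2.48 times (1.29 to 5.10) higher in Stalk cells with such UMIs than in those without, with little difference in Tip cells (1.04, 0.51 to 2.07).

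**Figure D5:**
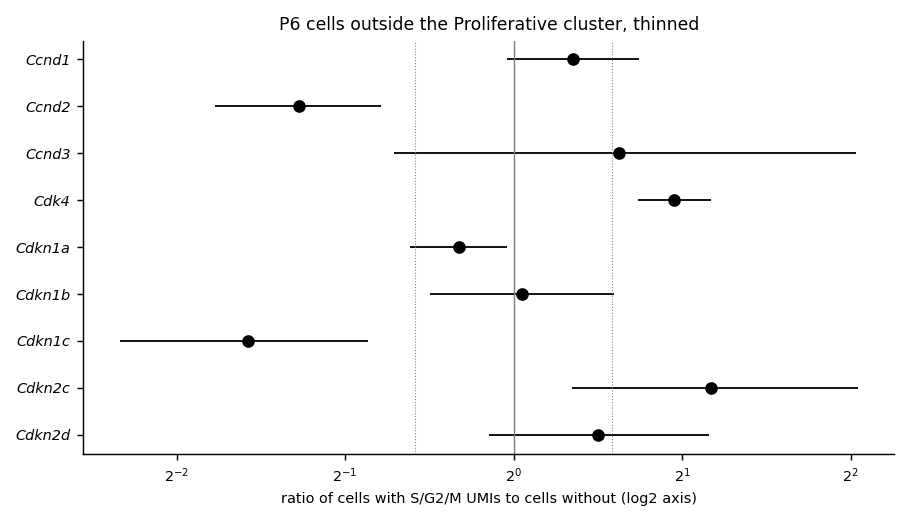
Ratio of the level in P6 cells with 2 or more UMIs of S, G2 and M genes to that in cells with none, outside the Proliferative cluster and thinned to 3000 UMIs, on a log2 axis with exact 95% counting intervals, for the 9 genes with enough UMIs; dotted lines mark 1.5-fold. Cdk4 (1.94) and Cdkn2c (2.25) lie above 1.5, and Ccnd2 (0.41) and Cdkn1c (0.34) below 0.667.

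Pairs of members seen in the same thinned cell were set beside the number expected from the 2 shares alone. Cdk4 and Cdkn1a met most often, in 222 P6 cells where 232 were expected. Ccnd1 and Cdkn1c met in 5 P6 cells where 17.8 were expected, and Ccnd2 and Cdkn2c met in 4 where 14.0 were expected. Cdkn2c and Cdkn2d met in 21 P6 cells over all clusters where 10.5 were expected. Within the Proliferative cluster they met in 9 where 8.41 were expected, so little excess was seen there. Ccnd2 and Cdkn1c, the pair that peaked in the arterial clusters, met in 20 cells where 11.5 were expected over all clusters. Within the Arterial and Cap-Arterial clusters they met in 17 where 20.02 were expected, so no excess was seen within them. The D cyclins Ccnd1 and Ccnd2 met in 39 cells where 39.5 were expected.

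The likeness of profiles over the 9 P6 clusters was taken as Pearson's r of log2(CPM + 10), among 5872 genes with 200 or more UMIs, as a description over clusters that share a library. Cdkn2d was most like Cdkn2c itself (r = 0.94, and 0.79 over 8 P15 clusters). Cdkn1c was most like Cd24a (0.98, and 0.88 at P15), Cthrc1 (0.98 and 0.92) and Glul (0.98 and 0.91). Glul is also the gene that held most of the glial marker sum. Ccnd1 was most like Txndc5 (0.95 at P6 but -0.59 at P15), Gng12 (0.93 and 0.79) and the actin bundler Fscn1 (0.92 and 0.96). For Cdk4 the closest were Hint1 (0.98 and 0.87), Nop10 (0.97 and 0.81) and Cycs (0.97 and 0.25), and for Cdkn2c they were Hdac2 (0.97 and 0.81), Spc25 (0.95 and 0.66) and Fkbp3 (0.94 and 0.58). The likeness of Ccnd2 to Elovl7 and Borcs6 (0.98 each at P6) was not kept at P15 (0.092 and -0.28). Cdkn1a (Prdm1, 0.93 and 0.54, Lipa, 0.92 and 0.42, Dnajc18, 0.92 and 0.64) and Cdkn1b (Marf1, 0.98 and 0.27, Acot2, 0.98 and 0.41, Nfia, 0.97 and 0.52) lay between. Among the members, Cdkn1c and Ccnd2 had r = 0.80 at P6 and 0.95 at P15, and Cdkn1c and Ccnd1 had -0.91 and -0.81.

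Other genes of the pathway were read from 10 lists. Between ages, S, G2 and M genes and several E and A cyclins were lower at P15, where 12.9% of all genes were lower and 17.3% higher. All 20 S, G2 and M genes were lower (median ratio 0.17), as were 4 of 8 E and A cyclins with their kinases CDK2 and CDK1 (median 0.52, Ccna2 0.16 and Cdk1 0.20), 3 of 8 E2F and DP factors (Tfdp1 0.56, E2f3 0.67) and 3 of 9 genes of the ubiquitin ligases that degrade cyclins and inhibitors (Cks1b 0.22, Ddb1 0.60), though the median of this list was 1.21 and that of all genes 1.07. Of the 2 RB family genes tested, 1 was lower. Of the other INK4 genes only Cdkn2b, which encodes p15, had enough UMIs, with 7.67 and 32.7 CPM (ratio 4.26, 3.03 to 5.99), a change of the opposite sign to that of Cdkn2c.

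Of upstream regulators, 3 lists were read against the same 17.3% higher. In the list of mitogen and growth regulators 8 of 13 genes were higher and 1 lower, led by Fos (4.75), Jun (4.09), Egr1 (2.60) and Mycn (2.55), with Myc at 0.31. Among p53 and its targets 2 of 9 were higher (Btg2 4.54, Gadd45a 2.80), and among Notch, connexin 37 and flow genes 5 of 10 were higher and 1 lower (Klf2 3.40, Klf4 3.04, Hey1 1.89 and Hes1 1.81, but Gja4, which encodes connexin 37, 0.51). Genes of the imprinted domain of Cdkn1c did not share its ratio: 0 of 5 were past 1.5-fold, with a median of 0.98.

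In P6 Proliferative cells, where 9.94% of all genes were higher and 13.1% lower, 5 of 9 E2F and DP factors were higher (E2f2 3.57, E2f7 2.85), as were 5 of 8 E and A cyclins with CDK2 and CDK1 (Ccna2 8.90, Cdk1 4.40), 2 of 10 ligase genes (Cks1b 3.56 and Skp2 3.16, both of the ligase that degrades p27), 1 of 2 RB family genes (Rbl1 3.99) and all 20 S, G2 and M genes. The study named this cluster by high Mki67 and E cyclin levels in these same counts, so the counts of cycle genes there are a description. The 1 other INK4 gene tested was lower. The mitogen list had 3 of 13 lower, the p53 list 3 of 9 and the Notch list 4 of 10. In P6 Cap-Arterial cells, beside 13.3% higher and 12.0% lower, all 20 S, G2 and M genes and 6 of 8 E and A cyclins were lower. There, 7 of 9 Notch, connexin 37 and flow genes were higher (Gja4 15.7, Hey1 8.33). Of the mitogen genes 5 of 12 were higher and 2 lower, and of the imprinted genes 1 of 5 was lower (Kcnq1 0.57). The study made its clusters from these same counts and named the arterial ones by genes that include Gja4 and Hey1. The counts of these lists in Cap-Arterial cells are therefore a description, in part set by the naming. In Primitive cells all 9 Notch and flow genes and 6 of 12 mitogen genes were lower, beside 39.3% of all genes.

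Barcodes of other cell types gave a further reference for the members. In the P6 library, 32 barcodes without a label held Neurod1, a transcription factor of retinal neurons, and at most 1 UMI of the endothelial genes Pecam1 and Cldn5 (median 3024.5 UMIs). They had 0 UMIs of Ccnd2 and of Cdkn1a, each of which allows up to 26.6 CPM, below the endothelial levels of 60.9 and 161 CPM. They held Ccnd1 at 275 CPM, Cdk6 at 62.0 CPM and Cdkn1c at 133 CPM. In the P15 library, 16 unlabelled barcodes with the pericyte genes Pdgfrb or Kcnj8 (median 2393 UMIs) had 95.5 CPM of Cdkn1a (26.0 to 244), below the 537 CPM of labelled cells, and 525 CPM of Ccnd2 (329 to 795), above their 219 CPM. Both rules were chosen after seeing the data.

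The counting strand is not given in the sources used here, and 7 of the 10 genes overlap a gene on the opposite strand (Ccnd1, Ccnd2, Ccnd3, Cdk4, Cdk6, Cdkn1a and Cdkn1c), so UMIs of such partners may be included. Cdkn1b, Cdkn2c and Cdkn2d have no such overlap.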

How the data were processed

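Sorted CD31+ CD45- retinal endothelial cells of wild-type P6 and P15 mice were profiled by droplet single-cell RNA sequencing, with a single library at each age. The values deposited by the authors are UMI counts per gene and barcode, not normalized. The submitters' processing notes name mm10 and Seurat 3.0, and the aligner is not given in the sources used here. Cluster names were the study's own, matched by barcode. They covered 1560 of 1984 P6 barcodes and 438 of 2141 P15 barcodes, since the P15 barcodes carried labels only among the first 539. The 2 tables shared 7 barcodes, 0 of them labelled. No column belonged to other samples.

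UMIs were summed over cells and divided by all UMIs of those cells (CPM), with exact 95% Poisson, conditional binomial and Clopper-Pearson intervals (Python 3.11.15, numpy 2.4.6, scipy 1.17.1, pandas 2.3.3, scikit-learn 1.9.0). A count of 0 was bounded with 3 counts. Ratios were computed for genes with at least 100 UMIs between ages, 10 expected UMIs in a cluster, and 20 UMIs between ages within a cluster. For shares, cells were thinned to 3000 UMIs, which left out 168 P6 and 117 P15 cells. Labels for unlabelled P15 cells that passed the study's filters (200 to 3500 genes, at most 5% mitochondrial UMIs, and none of Hbb-bt, Cd63 and Neurod1 seen) were predicted by 15 nearest neighbours in 13 components, right for 78.1% of labelled P6 and 82.2% of P15 cells in 5 folds. No doublet caller was run, and the 12 P6 and 4 P15 cells in which Xist met Y-linked UMIs were left out as an alternative. Counts were also simulated as Poisson draws with no spread between cells, so the coverage does not speak for uneven counts. There the intervals between ages held the true ratio for 95.6% of 8658 genes. Of 200 genes changed 3-fold, 100% passed 1.5-fold, as did 2.20% of the unchanged genes. For Cap-Arterial against other cells, 5.82% of unchanged genes passed it at P6 and 9.50% at P15.

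With 1 library per age, no p-values are given, and counts of genes past 1.5-fold describe these libraries. All 10 members were reported. Genes of 10 pathway lists were named when past 1.5-fold with at least 20 UMIs in the smaller group, at most 6 per list and comparison, and the 3 most alike profiles were named per member, except for 1 that is not reported here. The members and lists were chosen with earlier results of these data known. Other settings covered thinning, equal weight per cell, sex, filters, predicted labels and the fold.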

Additional observations from a re-analysis of the deposited data

Results flagged for a closer look

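Ccnd1 had a P15 to P6 ratio below 1 in 6 of the 7 clusters compared, but in Cap-Arterial cells the ratio was 1.70, and the difference between clusters was not tested. Cdkn2c was below 1 in 4 of 5 clusters and at 1.64 in Proliferative cells, which was not tested either. Cdkn2d was higher at P15 in 6 of 7 clusters and at 0.354 in Primitive cells, on 2 P15 UMIs, again with no test of the difference.

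Unlabelled P6 barcodes with Neurod1 held 3 members above their level in labelled P6 cells. Ccnd1 was at 275 CPM, but 19 of its 31 UMIs came from 1 of 32 barcodes. Cdk6 was at 62.0 CPM, on 7 UMIs, against 2.39 CPM in labelled cells. Cdkn1c was at 133 CPM, on 15 UMIs in 12 barcodes, against 35.3 CPM. Unlabelled P15 barcodes with Pdgfrb or Kcnj8 held Ccnd2 at 525 CPM, with 10 of 22 UMIs in 1 of 16 barcodes, and Cdk6 at 215 CPM, on 9 UMIs in 6 barcodes, against 4.67 CPM in labelled P15 cells.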

How the results depend on the processing

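No paired analysis was possible because there was 1 library per age. Among member values under other settings, 598 moved by less than their interval, 87 moved by more without a change of direction and 12 changed direction. The cause of each change was not tested. The P15 to P6 ratio of Cdkn1c was 0.977 (0.26 to 2.61) in Xist-only cells, on 4 P15 UMIs. Against other P6 cells, Ccnd3 in Tip cells was at 1.02 after thinning and 1.31 in Y-only cells, and Ccnd2 in Capillary cells at 0.870 in Y-only cells. Within clusters, the P15 to P6 ratio after thinning was 1.505 for Ccnd1 and 0.739 for Cdkn2c in Proliferative and 1.42 for Cdkn2c in Stalk cells. In Y-only cells it was 0.914 for Cdkn2c and 0.800 for Cdkn2d in Proliferative, 1.08 for Ccnd1 in Primitive and 2.59 for Cdkn2c in Stalk cells, and with predicted labels 1.05 for Ccnd1 in Primitive cells.

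Of the counts of members past the fold, 66 stayed within 1.5 times the count given and 12 did not. Between ages, 5 members in place of 3 were higher in cells without S, G2 and M UMIs and 5 in cells without pericyte, neural, glial or haemoglobin UMIs. In place of 2 lower, 1 was after thinning, 1 without Fos, Jun and Egr1 UMIs, 0 without S, G2 and M UMIs and 0 at P6 cluster shares. At a 2-fold threshold, 7 P6 pairs (in place of 11) and 3 P15 pairs (7) were higher, 5 P15 pairs (13) and 4 pairs between ages within clusters (11) were lower, and 1 member (3) was higher in cells with S, G2 and M UMIs. With such cells defined by 1 or more UMIs, 1 member (2) was lower. The settings without S, G2 and M UMIs, without early-gene UMIs and without UMIs of other cell types, and the Y-only settings among cells that passed the filters or within clusters, were chosen after seeing the data. Depth limits Ccnd3 and Cdk6 throughout, and Venous cells at P15.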
